A study of Brassica napus with 6 samples.

Results

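The first 15 Mb of chromosome A01 of oilseed rape (Brassica napus) gave fewer reads in cotyledons of a bnsdp1 mutant than in cotyledons of the wild type (WT). The stretch was taken as all genes of A01 that start before position 15000000 and average 1 CPM or more across the 6 libraries. CPM, the usual unit of read level, is the count of a gene scaled to a fixed total per library. This left 1217 of the 2281 genes annotated there, out of 43418 genes that reached the same level in the whole series. The stretch was chosen by the mutant over WT fold changes of its genes in these same libraries, so its fall is described here and not tested. The cause of the fall was not tested either.

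The libraries were made from poly(A) RNA of bnsdp1 cotyledons, the line bnsdp1#CR88 in the design text (3 libraries), and of WT cotyledons (3 libraries). All seedlings were kept dark for 4 days on 1/2 MS medium that held 1% sucrose, and 6 h of normal conditions followed. Whether the replicates are independent cultures is not in the labels, and p-values therefore reflect how these libraries vary, possibly for technical reasons. The mutant is 1 line, so effects of the mutation and other differences between this line and the WT cannot be told apart. Mutant libraries held 48288744, 54965583 and 54358576 counts, and WT libraries 56801337, 65550668 and 51404121.

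Oilseed rape is an allotetraploid that carries an A subgenome, from the ancestor of Brassica rapa, beside a C subgenome, from the ancestor of Brassica oleracea. A01 and C01 are homoeologous, meaning that they descend from the same ancestral chromosomes and share most of their genes as paired copies. SDP1 (SUGAR-DEPENDENT1) is the lipase that, in Arabidopsis, starts the breakdown of stored oil after germination. The identifiers in the files are not paired with gene names, so functions, cotyledon markers and the targeted gene were not analysed here. Which C01 gene is the counterpart of which A01 gene was likewise not analysed here.

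The first 15 Mb are a gene-rich arm of A01. They held 152 annotated genes per Mb and 81.1 genes per Mb at 1 CPM or more, against 120.8 and 51.7 from 24 Mb to the end of the chromosome. Between 16 and 24 Mb lay a gene-poor interior with 33.2 annotated and 10.4 genes per Mb at that level. Features that the choice did not use had similar values in the stretch and on C01. The median gene span was 2075 bases in the stretch and 2022 bases on C01, and the plus strand held 49.9% of genes in the stretch and 50.2% on C01. The median level, for which both have the same minimum, was 6.96 CPM in the stretch and 7.28 CPM on C01.

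Of the other 1064 genes annotated in the stretch, 395 had no read in any library and 368 had reads but too few for the test. The remaining 301 were tested at a mean under 1 CPM.

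Summed over its 1217 genes, the stretch held 22942, 23147 and 23010 CPM in mutant replicates 1, 2 and 3, against 30598, 31004 and 31080 CPM in WT replicates 1, 2 and 3. All mutant sums lay below all WT sums, and the sums differed little within a genotype. The mean was 23033 ± 104 CPM in the mutant and 30894 ± 259 CPM in WT (SD, n = 3 each), a mutant to WT ratio of 0.746. CPM is not corrected for gene length, so these sums are shares of reads and not of transcripts.

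Neither the rest of A01 nor C01 showed such a drop. The rest of A01 summed to 16585 ± 631 CPM in the mutant and 15242 ± 187 CPM in WT (SD, n = 3 each), a ratio of 1.09. C01 summed to 49506 ± 711 CPM in the mutant and 46215 ± 932 CPM in WT, a ratio of 1.07. Over the first 15 Mb of C01 alone the sums were 24322 ± 450 and 24864 ± 803 CPM, a ratio of 0.978, and the genotypes overlapped.

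**Figure D1:**
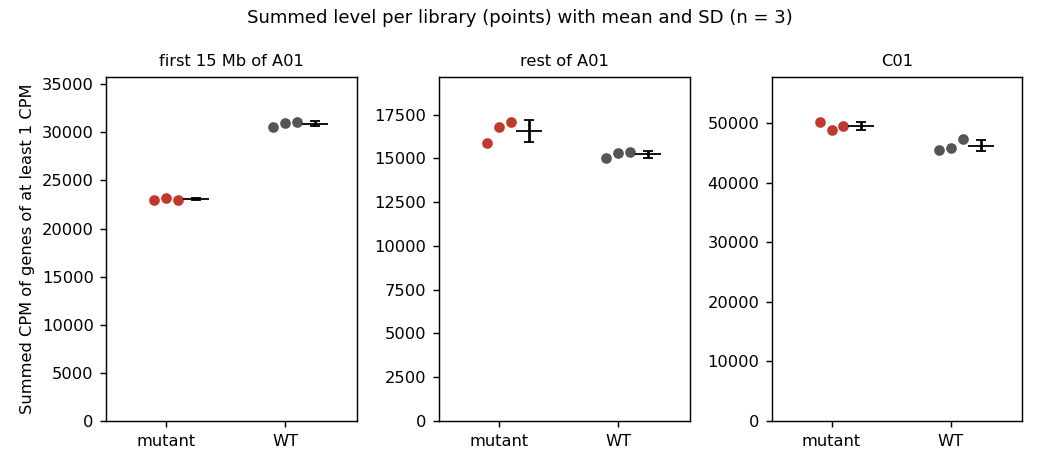
Summed CPM in each library of genes whose mean reached 1 CPM (points), with mean and SD (n = 3) beside them, for the first 15 Mb of A01, the rest of A01 and C01; each vertical axis starts at 0. The mutant libraries lie between 22942 and 23147 CPM in the first 15 Mb of A01 and the WT libraries between 30598 and 31080 CPM.

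The typical gene fell by less than the sum. The median log2 ratio to WT, centred in each library on all 43418 genes, was -0.32, -0.27 and -0.30 in mutant replicates 1, 2 and 3, against -0.01, 0.02 and -0.01 in WT replicates 1, 2 and 3. The mutant libraries were all low, with a mean of -0.30 ± 0.02 (SD, n = 3). The same medians in the mutant libraries were -0.02, 0.04 and 0.07 over the rest of A01 and 0.00, 0.02 and 0.00 over C01. In bulk cotyledons, fewer cells that express a gene and less RNA per cell cannot be told apart.

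Gene tests were run with edgeR (quasi-likelihood test, mutant over WT) on all 56385 genes with enough reads, whose median log2 fold change was 0.02. The 1217 genes of the stretch had a median log2 fold change of -0.30, which was -0.32 relative to all tested genes, and 68.1% of them had a negative value. The rest of A01 (823 genes) had a median of 0.10 with 44.7% negative, and C01 (2139 genes) a median of 0.04 with 47.2% negative. Among the 18 other chromosomes, the median of the first 15 Mb ranged from -0.05 to 0.13.

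At a false discovery rate (FDR) under 0.05 over all tested genes, 576 genes of the stretch were lower in the mutant (47.3%), where 28.1% of all genes at or above 1 CPM were lower. Another 199 were higher (16.4%), where 29.8% of all such genes were. On the rest of A01, 208 genes were lower and 212 higher, and on C01 583 were lower and 671 higher. All 3 mutant libraries lay below all 3 WT libraries in 673 genes of the stretch (55.3%), against 34.1% of all genes, and above them in 217 (17.8%), against 31.4%. These shares follow in part from the choice of the stretch, and nothing further is read from them. The 442 genes of the stretch that did not pass the test had a median of -0.05, with 57.2% negative. Being uncalled holds such genes near 0, so this median does not measure how far the fall extends. Uncalled genes had a median of 0.09 with 39.7% negative on the rest of A01, and 0.01 with 48.1% on C01. Over all genes at or above 1 CPM the values were 0.03 and 46.0%.

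The whole distribution sat lower, not just its low end. Against C01, the 75th percentile of log2 fold changes differed by -0.32, the 50th by -0.35 and the 25th by -0.39. Further out, the differences were -0.37 at the 90th percentile, -0.40 at the 95th, and -0.52 at both the 10th and the 5th. The middle of the distribution was therefore displaced by a similar amount throughout. Against C01 the low tail was displaced most, and the high tail by more than the 75th percentile. Against all genes with at least 1 CPM the difference shrank steadily, from -0.54 at the 5th percentile to -0.24 at the 95th. The distance between the 25th and 75th percentiles was 0.93 in the stretch, 0.76 on the rest of A01 and 0.87 on C01.

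**Figure D2:**
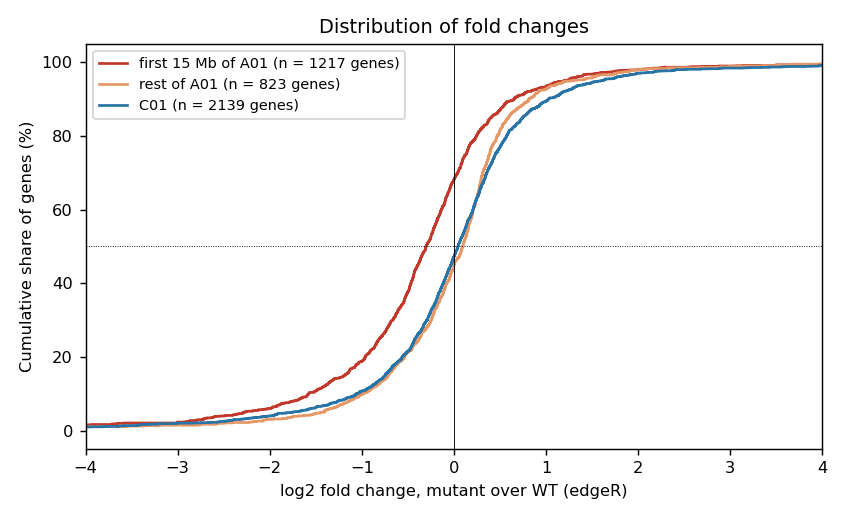
Cumulative share of genes (%) against the edgeR log2 fold change of mutant over WT, for genes whose mean reached 1 CPM in the first 15 Mb of A01 (1217 genes), the rest of A01 (823) and C01 (2139). The curve of the first 15 Mb of A01 crosses 50% at -0.30, left of the rest of A01 at 0.10 and C01 at 0.04; values beyond 4 on either side are outside the axis.

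Along the chromosome the fall was present in every window. Each of the 15 windows of 1 Mb held 38 to 134 genes of the stretch and had a negative median log2 fold change, between -0.47 (14 to 15 Mb) and -0.10 (11 to 12 Mb). Between 56.9% and 78.8% of the genes in a window had a negative value. Other windows with low medians were 7 to 8 Mb at -0.44, 0 to 1 Mb at -0.42 and 4 to 5 Mb at -0.41. The shallowest after 11 to 12 Mb were 9 to 10 Mb at -0.19 and 3 to 4 Mb at -0.20. By larger steps the median was -0.34 over 0 to 5 Mb, -0.29 over 5 to 10 Mb and -0.25 over 10 to 15 Mb.

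The mutant libraries traced similar profiles. They are all set against the same WT mean, and the stretch was chosen on this contrast. Their likeness and their distance from WT therefore follow in part from both. In the window from 14 to 15 Mb the centred medians were -0.44, -0.40 and -0.39 in mutant replicates 1, 2 and 3, against 0.02, 0.01 and 0.00 in WT replicates 1, 2 and 3. In the window from 4 to 5 Mb they were -0.41 in each mutant library, against 0.02, 0.06 and -0.06 in the WT libraries. In the shallowest, from 11 to 12 Mb, they were -0.15, -0.07 and -0.16 in the mutant, against -0.01, 0.03 and 0.02 in WT. All 15 windows had every mutant library below every WT library, as had 180 of 787 windows on the 18 other chromosomes. Within a window of the stretch the mutant libraries differed by at most 0.16. WT libraries of the 15 windows lay between -0.08 and 0.06.

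Elsewhere a run as long was not seen, but lower single windows were. Counting windows with at least 10 genes in order, A01 had 16 adjacent windows with a negative median, from 0 to 16 Mb, and the longest run on any other chromosome was 9, on C04. On the 18 other chromosomes, 297 of 787 windows had a negative median, and 14 were as low as the -0.30 of the stretch. Of those 14, 5 were on A07 and 1 was on C01. The lowest window median on these chromosomes was -0.71, and A07 had 6 adjacent windows with a negative median, from 26 to 32 Mb. On C01, 18 of 50 windows were negative, with medians from -0.34 to 0.35. The medians of the 15 windows varied with an SD of 0.11, against 0.15 for the windows of C01 and 0.17 for those of the rest of A01. Windows held 38 to 134 genes in the stretch, 11 to 117 on C01 and 15 to 71 on the rest of A01, whose gene-poor interior is included, and such SDs also depend on the number of genes.

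**Figure D3:**
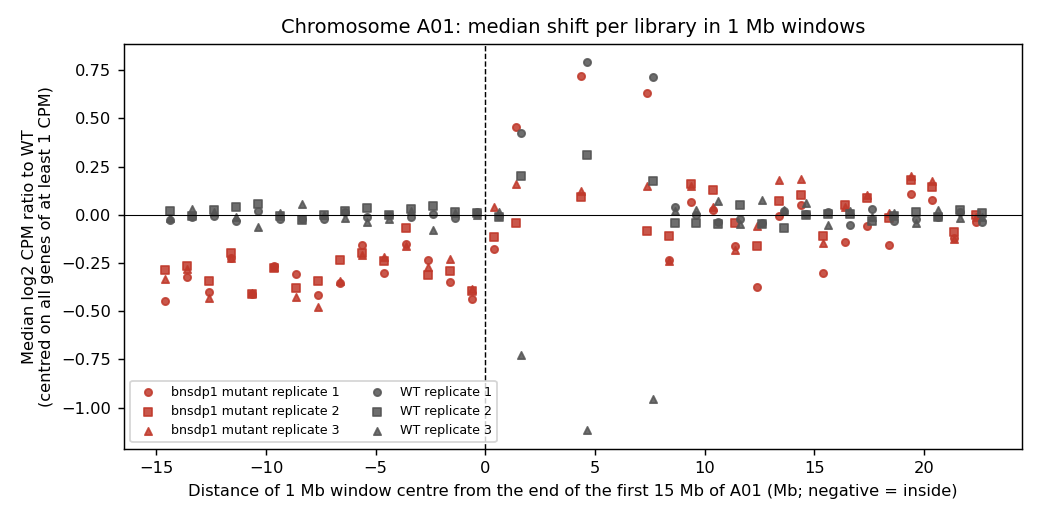
Median log2 CPM ratio to WT of the genes in each 1 Mb window of A01 (windows with at least 10 genes, centred on all genes of at least 1 CPM), in 3 mutant libraries (red, drawn left of WT) and 3 WT libraries (grey), against the distance from the end of the first 15 Mb. Left of the dashed line mutant points lie between -0.48 and -0.07 and WT points between -0.08 and 0.06; 3 windows of the gene-poor interior, right of it, spread widely within both genotypes.

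The end of the stretch lay where genes became sparse. Just inside, the median over the 42 genes from 14 to 15 Mb was -0.47 on the log2 scale, with 24 lower and 4 higher (57.1% and 9.52%). Just outside, the 20 genes from 15 to 16 Mb had a median of -0.09, with 6 lower and 5 higher (30% and 25%). Over all genes at or above 1 CPM the shares were 28.1% and 29.8%. Over the next 83 genes, from 16 to 24 Mb, the libraries of each genotype spread widely, at 0.47, -0.02 and 0.13 in mutant replicates 1, 2 and 3 and at 0.55, 0.17 and -0.78 in WT replicates 1, 2 and 3. The genotypes overlapped there, WT replicate 3 was the lowest library, and the fitted median was 0.24. With this interior left out, the 720 genes of A01 from 24 Mb on had a median of 0.07. Of these, 195 were lower and 201 higher (27.1% and 27.9%). Their centred library medians were -0.07, 0.07 and 0.06 in mutant replicates 1, 2 and 3.

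At the limit set by level, the 33 genes with a mean between 1 and 1.25 CPM had a median of -0.64, and the 46 genes between 0.8 and 1 CPM, just left out, a median of -0.56. All 301 tested genes under 1 CPM had a median of -0.54, with 91 lower (30.2%) and 28 higher (9.30%). In the whole series 20.1% of tested genes under 1 CPM were lower and 10.9% higher. Tested genes under 1 CPM had a median of 0.14 on the rest of A01, -0.22 on C01 and -0.10 in the whole series. Summed over all 1064 genes under the minimum, the stretch held 131, 132 and 139 CPM in mutant replicates 1, 2 and 3, against 183, 184 and 219 CPM in WT replicates 1, 2 and 3. The genotypes did not overlap, and the ratio was 0.685. That sum is given for the stretch alone, so how far the ratio is shared with other low genes was not tested.

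The fall was found at every level of expression. Genes were divided by their mean CPM over the 6 libraries. The 154 genes from 1 to 2 CPM had the lowest median log2 fold change, -0.54, and the 200 genes from 10 to 20 CPM the highest, -0.15. Between them lay the 314 genes from 2 to 5 CPM at -0.32, the 292 from 5 to 10 CPM at -0.31 and the 163 from 20 to 50 CPM at -0.27. The 53 genes from 50 to 100 CPM had a median of -0.25, and the 41 genes of 100 CPM or more a median of -0.38. No steady trend with level ran through these values.

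Part of the difference between levels was shared with the rest of the genome. Genes from 1 to 2 CPM in the whole series had a median of -0.04 and those from 10 to 20 CPM a median of 0.11. Relative to the same level class in the whole series, the genes of the stretch were displaced by -0.51 in the class from 1 to 2 CPM and by -0.26 to -0.37 in the 6 others. Classes by WT level alone gave another order. With the minimum of 1 CPM over the 6 libraries kept, the 118 genes from 1 to 2 CPM in WT had a median of 0.12, since a gene that low in WT passes that minimum more readily where it is higher in the mutant. Without the minimum the 166 genes of that class had a median of -0.39, and the displacement from the whole series was -0.30 to -0.38 in all 7 classes. That setting was chosen after seeing the data.

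**Figure D4:**
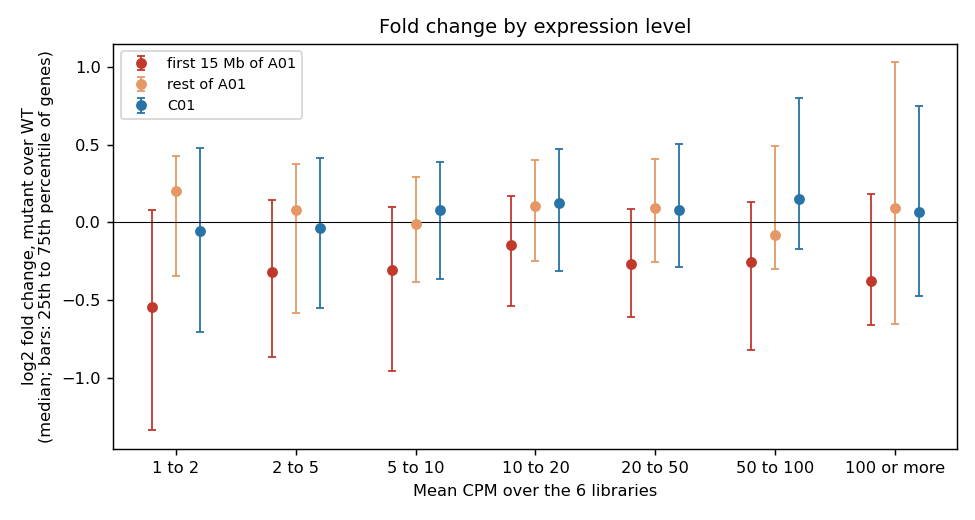
Median edgeR log2 fold change of mutant over WT (points) with the 25th to 75th percentile of genes (bars), by mean CPM over the 6 libraries, for the first 15 Mb of A01, the rest of A01 and C01. The medians of the first 15 Mb of A01 lie between -0.54 and -0.15 in all 7 classes.

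The median was negative in every class of strand, span, overlap and replicate spread, with different sizes. Genes on the plus strand had a median log2 fold change of -0.25 and those on the minus strand -0.36. In 4 classes of equal size by span, from the shortest (162 to 1283 bases) to the longest (3245 to 28586 bases), the medians were -0.29, -0.38, -0.30 and -0.25. The 29 genes that overlap another annotated gene had a median of -0.15, and the other 1188 a median of -0.30. In 4 such classes by edgeR's biological coefficient of variation, from the steadiest genes to the most variable, they were -0.21, -0.23, -0.36 and -0.53. The share of negative values across those classes was between 67.1% and 70.7%. The distance between the 25th and 75th percentiles was 0.63 among the steadiest genes and 1.54 among the most variable.

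The spread between libraries of the same genotype does not use the contrast that chose the stretch. The median SD of log2(CPM + 0.5) over its genes was 0.118 in the mutant and 0.123 in WT, against 0.121 and 0.129 on C01 and 0.126 and 0.129 in the whole series. Its genes thus varied between replicates about as much as genes elsewhere.

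Large falls were frequent. At least 2-fold falls were called for 228 genes of the stretch (18.7%), where 11.3% of all genes with at least 1 CPM fell that far. On the rest of A01 the count was 80 (9.72%), and on C01 229 (10.7%). Falls of at least 3 on the log2 scale were called for 28 genes (2.30%), against 1.64% of all genes. The shares were 1.46% on the rest of A01 and 2.01% on C01. The 228 genes had a median of 1.98 CPM in the mutant and 7.63 CPM in WT. They lay in all 15 windows, from 7 genes between 9 and 10 Mb to 31 between 2 and 3 Mb.

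A few genes with many reads carried much of the lost sum. Of 1217 genes, 852 had a lower mean CPM in the mutant and dropped by 11390 CPM in sum, while 365 had a higher mean and gained 3529 CPM in sum. The 10 largest losses made up 50.2% of all loss, and the single largest made up 22.5%. Of the 10 genes with the highest mean CPM, 8 were called lower and 1 higher. Of the 41 genes of the stretch with at least 100 CPM, 53.7% were lower and 22.0% higher. In the whole series 33.1% of genes at that level were lower and 34.1% higher. Without the 10 genes of highest mean CPM the stretch summed to 18534 CPM in the mutant and 21198 CPM in WT, a ratio of 0.874. This ratio is nearer 1 than the 0.746 over all genes. Shares of loss and sums without such genes are given for the stretch alone, with none for the rest of A01 or C01.

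The largest single loss was at BnaA01G0167300ZS (A01, 9929296 to 9931159, plus strand), the gene with the highest mean CPM in the stretch. It had 510, 642 and 745 CPM in mutant replicates 1, 2 and 3, against 3157, 3146 and 3294 CPM in WT replicates 1, 2 and 3. The mutant libraries were far below the WT libraries, and the log2 fold change was -2.30 with an SE of 0.141 (adjusted p = 7.36e-07 by edgeR). Its 10 nearest genes of the stretch had a median of -0.08, with 4 lower and 3 higher (stretch: 47.3% and 16.4%). The window from 9 to 10 Mb, which holds it, had the lowest summed ratio, 0.397, and a ratio of 0.949 without it. Without this gene the whole stretch summed to 22400 CPM in the mutant and 27695 CPM in WT, a ratio of 0.809. Leaving out the gene of largest loss raises both ratios by construction.

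The gene with the largest fall on the log2 scale, among those with a mean of at least 5 CPM, was BnaA01G0208300ZS (A01, 13001494 to 13002339, plus strand). It had 0.207, 0.0728 and 0.147 CPM in mutant replicates 1, 2 and 3, against 11.7, 10.5 and 10.5 CPM in WT replicates 1, 2 and 3. These rest on 22 reads over the mutant libraries and 1894 over the WT libraries. By edgeR the log2 fold change was -6.22 with an SE of 0.212 (adjusted p = 1.7e-08). Pooled reads per library size were 78.1 times higher in WT, with an exact 95% counting interval of 51.4 to 124.9. Its 10 nearest genes had a median of -0.17.

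Genes that rose against the fall were found throughout the stretch. At least 2-fold rises were called for 80 genes of the stretch (6.57%), where 8.97% of all genes with at least 1 CPM rose that far. The shares were 7.29% on the rest of A01 (60 genes) and 10.5% on C01 (224 genes). The median log2 fold change of these genes was 1.43 in the stretch, 1.55 on the rest of A01 and 1.54 on C01. Of the 80, 24 rose by at least 2 on the log2 scale (1.97% of the stretch, where 2.75% of all genes did) and 7 by at least 4 (0.575%, where 0.686% of all genes did). They had a median of 9.81 CPM in the mutant and 2.69 CPM in WT. The ratio of 2-fold rises to 2-fold falls was 0.351 in the stretch, 0.75 on the rest of A01 and 0.978 on C01.

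The rising genes lay in all 15 windows, with 14 between 1 and 2 Mb, 10 between 9 and 10 Mb and 2 to 7 in each other window. Of the 80, 47 stood next to a gene called lower (58.8%) and 33 next to a gene called higher (41.2%). Over all 1217 genes of the stretch, 72.6% stood next to a lower gene and 29.6% next to a higher one, and for the 228 genes that fell at least 2-fold the shares were 76.3% and 25.4%. On C01, 38.8% of the genes with a rise of at least 2-fold stood next to a lower gene and 58.9% next to a higher one, where the shares over all genes of C01 were 46.5% and 52.2%. These shares move with how many genes are called, and their differences were not tested. The longest unbroken row of positive values was 6 genes (2337241 to 2355882), while the longest row of negative values was 19 genes (1648935 to 1789032). On C01 the longest rows were 12 positive and 11 negative genes. On the rest of A01 they were 14 positive genes, in the gene-poor interior (16356314 to 16791962), and 7 negative genes. Row lengths also move with the share of negative values, which was 68.1% in the stretch, 44.7% on the rest of A01 and 47.2% on C01.

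**Figure D5:**
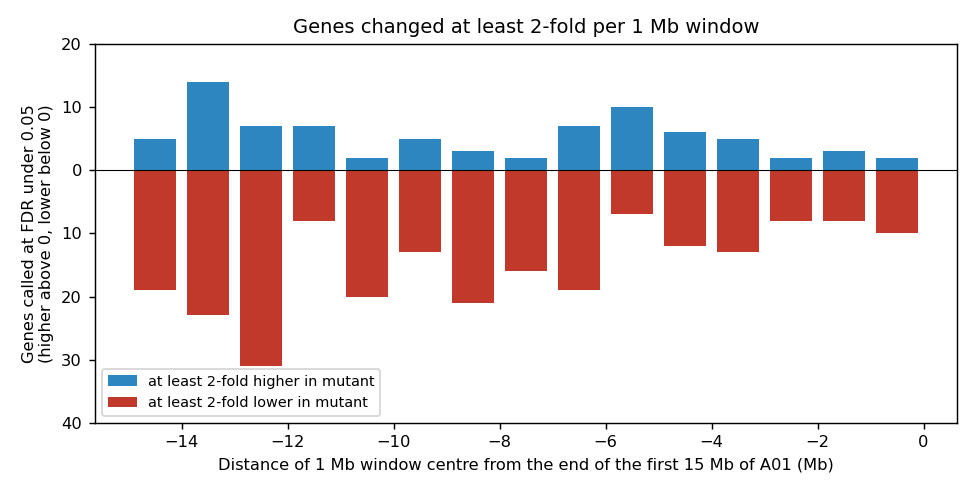
Number of genes in the first 15 Mb of A01 called at least 2-fold higher (bars above 0) or at least 2-fold lower (bars below 0) in the mutant at an edgeR FDR under 0.05, in each 1 Mb window, against the distance from the end of the stretch. Lower genes outnumber higher ones in every window except that from 9 to 10 Mb, with 10 higher and 7 lower.

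In a pair of windows the rising genes outweighed the falling ones in reads. The window from 1 to 2 Mb summed to 3665 CPM in the mutant and 2776 CPM in WT, a ratio of 1.32. Its median log2 fold change was nevertheless -0.30, and 58 of its 122 genes were lower, where 47.3% of the stretch were. Without its gene of largest change, a rise of 500.0 CPM, the ratio was 1.14. The window from 11 to 12 Mb summed to 1292 CPM in the mutant and 1071 CPM in WT, a ratio of 1.21, and 1.05 without its gene of largest change. In both windows that gene rose, so leaving it out lowers the ratio by construction. The ratios of the other 13 windows lay between 0.397 and 0.860.

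BnaA01G0032400ZS (A01, 1792487 to 1793759, minus strand) had the highest mean CPM among the genes that rose at least 2-fold. It had 458, 550 and 504 CPM in mutant replicates 1, 2 and 3, against 236, 227 and 185 CPM in WT replicates 1, 2 and 3. The genotypes did not overlap, and edgeR gave 1.26 as log2 fold change with an SE of 0.126 (adjusted p = 2e-05). Of its 10 nearest genes 5 were lower and 3 higher (stretch: 47.3% and 16.4%), and their median was -0.43. The next gene of the stretch along the chromosome had a log2 fold change of 3.63, and the gene before it one of -0.43.

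The largest rise was at BnaA01G0013200ZS (A01, 820221 to 821632, plus strand), which had 24.2, 18.9 and 18.2 CPM in mutant replicates 1, 2 and 3, against 0, 0.0305 and 0 CPM in WT replicates 1, 2 and 3. The mutant libraries together had 3196 reads and the WT libraries 2. By edgeR, 10.57 was the log2 fold change with an SE of 0.324 (adjusted p = 9.67e-09). The pooled ratio was 1762, with an exact 95% counting interval of 487 to 14553. Without WT replicate 2 no WT read was left, and the fit gave 13.10, a value set by the prior count. Among its 10 nearest genes, between 779301 and 860435, log2 fold changes ran from -4.18 to 0.69 with a median of -0.43. Of the 10, 5 were lower, where 47.3% of the stretch were.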

How the data were processed

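The deposited files hold raw counts of reads per gene and library, with the columns that featureCounts writes, per the file headers. The submitters' processing notes name fastp, HISAT2 and featureCounts. Not given in the sources used here are versions, genome build, strand use and how multi-mapped reads were handled. In 100% of rows the gene length equals the gene span, so counts can include reads from introns. Reads shared by near-identical A and C copies can have been split or dropped, which makes single copies uncertain. Of the genes of the stretch, 29 overlap another annotated gene, and reads of such genes may not be told apart.

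Total counts were between 48288744 and 65550668 per library. Intervals on read ratios are exact (Clopper-Pearson, 95%) and cover counting error only; molecular identifiers are not mentioned in the labels. Libraries of a genotype differed by more than sampling noise (chi-square per degree of freedom at least 7.62).

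Tests used edgeR 4.0.16 in R 4.3.3 on all genes kept by filterByExpr, with TMM scaling, the quasi-likelihood F test, no covariate and Benjamini-Hochberg adjustment over 56385 genes. SE is the absolute log2 fold change over the square root of F. Library medians use log2(CPM + 0.5) with the WT mean subtracted (each WT library against its fellow WT replicates), and are centred on all genes of at least 1 CPM. Windows were 1 Mb wide by gene start, with at least 10 genes. The members, the windows and all summaries were chosen with earlier results of these data known. Genes were named among those past the FDR threshold of 0.05 that averaged 5 CPM or more and did not overlap between genotypes. As no table pairs the identifiers with names (0 of 100919 matched a list of 123214 genes of another assembly, Da-Ae), 2 that rose and 2 that fell are named. In each direction these are the largest change and the highest mean CPM among at least 2-fold changes. DESeq2 1.42.0, limma 3.58.1 and other settings were tried as alternatives.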

Additional observations from a re-analysis of the deposited data

How the results depend on the processing

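Under other scalings, DESeq2, limma voom, no filter on low counts or without overlapping genes, 550 to 607 genes of the stretch were called lower and 188 to 203 higher, and the median relative to all tested genes, -0.32 as reported, stayed between -0.32 and -0.31. Leaving out single libraries gave 514 to 550 lower, 173 to 199 higher and a median of -0.33 to -0.27, the last without mutant replicate 1. The replicate block gave 560, 196 and -0.32. Deviations from the group means correlated at r = 0.131, -0.0177 and 0.0960 between libraries of equal number, and mutant replicate 2 was closest to WT replicate 3, so no pairing was taken from the numbers. The median was -0.29 for genes of at least 2 CPM, and -0.27 with 368 lower genes for those of at least 5 CPM, where fewer genes enter. It was -0.28 over the first 20 Mb, which takes in genes beyond the stretch. The cause of the shift without mutant replicate 1 was not tested. The highest window median, -0.10, was -0.19 with 2 Mb windows. The highest median of a level class, -0.15, turned to 0.12 with classes by WT level, by the construction given above, and was -0.28 without the CPM minimum. Rises of at least 1.5-fold were called for 127 genes (10.4%, where 18.1% of all genes rose that far), against 80 at 2-fold. The summed ratio, 0.746, was 0.874 without the 10 genes of most reads and 0.809 without the largest loss. The median SD in the mutant was 0.130 with an offset of 0.1 CPM. The last 2 settings and the class without the minimum were chosen after seeing the data. The 4 named genes kept direction and call in the 12 other fits run (largest adjusted p 0.000229, by edgeR, DESeq2 or limma). At this depth 368 genes of the stretch had too few reads to be tested.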
